A study of Danio rerio with 2 samples.

Results

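The genes described here encode the dynein arms of the ciliary axoneme, the structures that hold or control them, and the proteins that assemble them. They were chosen by a rule on gene names that uses no measured value, although the rule was set with earlier results of these data known. The rule took genes whose deposited symbol or Ensembl name begins with DNAH, DNAI, DNAL, DNAAF, TEKT, RSPH or DRC, or is 1 of a short set of further names such as CCDC39, ZMYND10 or hydin. It found 40 of the 17668 genes in the data set, 12 by both names, 23 by the Ensembl name and 5 by the deposited symbol. Of 56 Ensembl identifiers that now bear such a name, 21 are not among the deposited identifiers and were not analysed here. These include genes named DNAH1, dnah9, DNALI1, ccdc40 and GAS8, and 6 that share the name of a gene analysed here under another identifier.

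RNA-seq was recorded from a library of GFP(+) cells and a library of GFP(−) cells, both made from polyA RNA of cells that flow cytometry had separated from ppv3b:GFP zebrafish larvae of 5 dpf (genotype Ppv3b-GFP). Both groups carry the transgene, which drives GFP mainly, but not solely, in hair cells (HCs), which lie in the inner ear and in lateral line neuromasts, so the labels call GFP(+) cells HCs and GFP(−) cells non-HCs. The values are read counts per gene after quantile normalization, with a floor of 20, and are called normalized reads below. With 1 library per group there is no replicate error, no test was made, and no difference has a replicate check. Normalization gave both libraries the same set of values, with a median of 186, so that the depth of each library is unknown. In these bulk libraries fewer cells of a type and less RNA per cell cannot be told apart.

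A motile cilium is built on an axoneme, a ring of microtubule doublets that usually surrounds a central pair of microtubules. Outer and inner dynein arms, fixed along each doublet, walk on the neighbouring doublet and bend the cilium, while radial spokes, the central pair and the nexin link control when they act. Dynein arms are put together in the cytoplasm by dedicated assembly factors before they are carried into the cilium. HCs carry 1 true cilium, the kinocilium, at the edge of the hair bundle, and other larval cells with motile cilia lie in the nasal pits, the pronephric ducts and the lining of the brain and spinal canal.

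GFP(+) cells had the higher value for 38 of the 40 genes and for 8385 of all 17668 genes. A ratio of 3-fold or more in favour of GFP(+) cells was found for 31 of them, which is 77.5%, and for 16.9% of all genes. At least 3-fold lower values in GFP(+) cells were found for 1 of them and for 16.4% of all genes, and 8 lay between these limits. On the log2 scale their median ratio (GFP(+) over GFP(−)) was 2.37, with quartiles of 1.66 and 2.90, and that of all genes was −0.10. The median value of the 40 genes was 189.75 normalized reads in GFP(+) cells, close to the median of that library, and 36.5 in GFP(−) cells. In GFP(+) cells 7 of the 40 genes had under 100 normalized reads, and in GFP(−) cells 35 did. The counts of genes at least 3-fold higher by structural class below stand beside the same 16.9% of all genes.

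**Figure D1:**
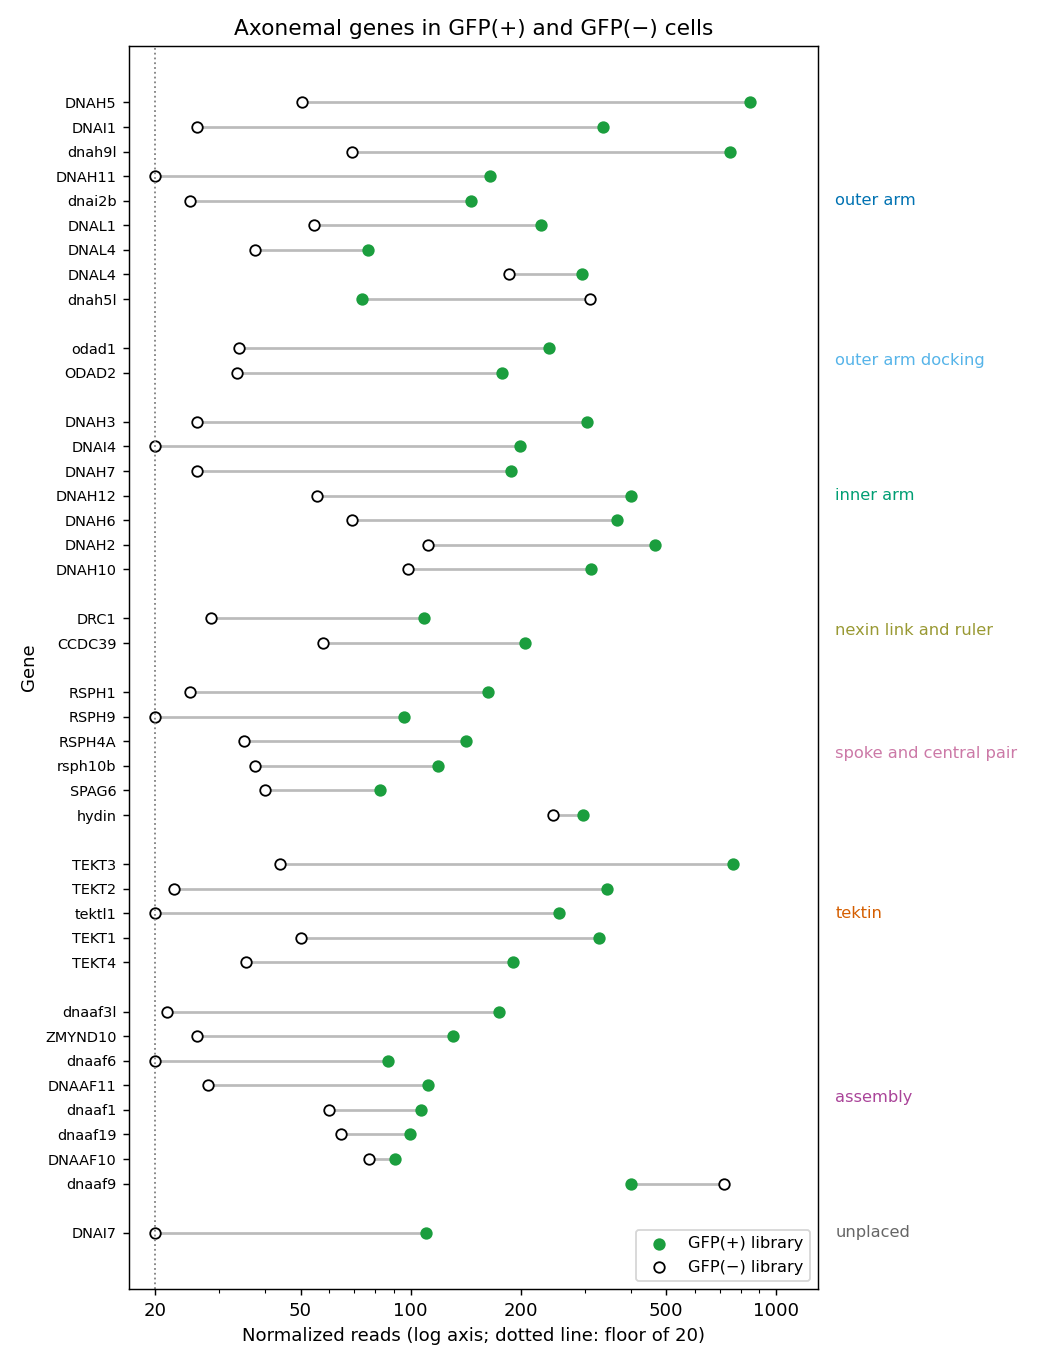
Normalized reads (log axis) of the 40 genes in the GFP(+) library (filled green) and the GFP(−) library (open), grouped by structural class and ordered by ratio. The GFP(+) point lies to the right for 38 genes and to the left for 2, dnah5l and dnaaf9. Every gene of the data set with a GFP(−) value of up to 25, 10 of them shown here, was higher in GFP(+) cells.

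The low GFP(−) values limit these ratios. For all 823 genes with a GFP(−) value of up to 25, the GFP(+) value was 82 or more, which by itself is a ratio of over 3-fold. The place of the 10 axonemal genes in that range is therefore fixed by the table and is no separate finding. Of the other 30 genes, 21 were at least 3-fold higher, beside 12.9% of all genes with a GFP(−) value above 25. No gene had both values under 30, so a gene with a GFP(−) value under 30 had to be higher in GFP(+) cells. DNAH3, DNAH7, DNAI1 and ZMYND10, for instance, had 26 in GFP(−) cells. Whether the 3-fold limit was also fixed there was not examined, which limits the count of 21. Where the mean of both values was 100 or more, 19 of 23 axonemal genes and 18.1% of all genes were at least 3-fold higher. As 18 of these 23 genes had a GFP(+) value of the required size but a GFP(−) value under 100, most met the minimum through their GFP(+) value, and this count gives no support. With 100 reads added to both values, 7 of the 40 genes and 7.82% of all genes were past this limit, and with all values under 100 set to 100, 11 of the 40 genes and 9.74% of all genes were. Ratios of the 6 genes at the floor in GFP(−) cells are lower bounds and are ranked below by these bounds.

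**Figure D2:**
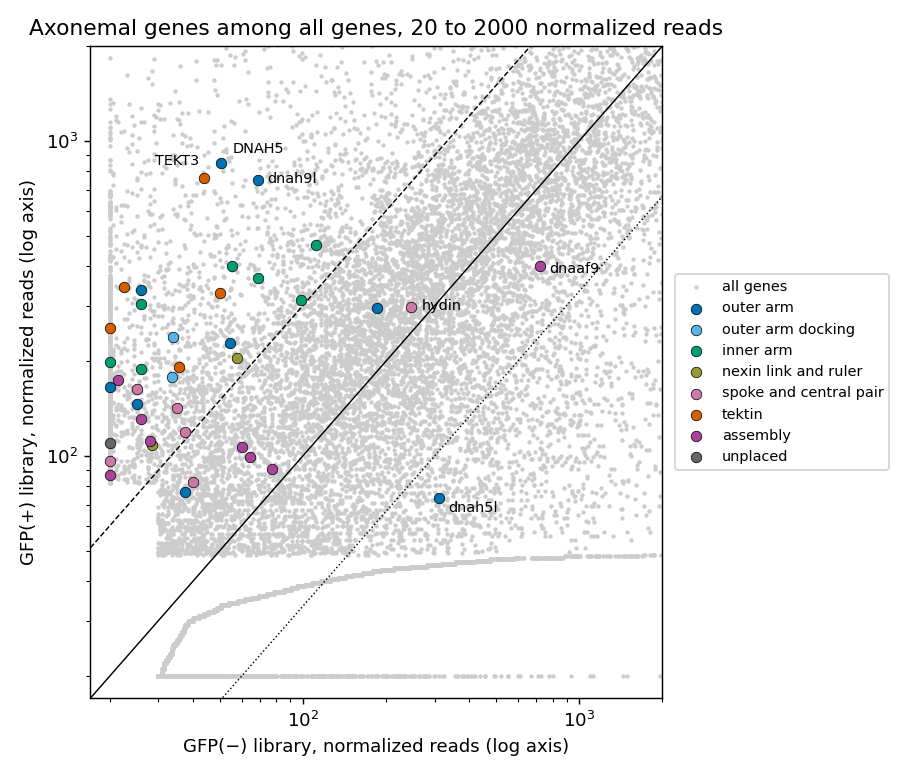
Normalized reads of each gene in the GFP(+) library (vertical log axis) against the GFP(−) library (horizontal log axis), with all genes in grey and the 40 axonemal genes in the colour of their class. The solid line marks equal values, the dashed line 3-fold higher and the dotted line 3-fold lower values in GFP(+) cells. The 10 axonemal genes with a GFP(−) value of up to 25 lie in a range that holds no gene under 82 in GFP(+) cells.

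The outer arm generates most of the force of the ciliary beat, and each vertebrate arm pairs a heavy chain of the gamma type (DNAH5 or DNAH8) with one of the beta type (DNAH9, DNAH11 or DNAH17). DNAH5 (ENSDARG00000087373) had 847.5 normalized reads in GFP(+) cells, against 50.5 in GFP(−) cells, and was 16.8-fold higher in GFP(+) cells. dnah9l (ENSDARG00000062630), a beta-type chain, had 748 normalized reads in GFP(+) cells, against 69 in GFP(−) cells, a 10.8-fold difference. A further beta-type chain, DNAH11 (ENSDARG00000094282), had 165 in GFP(+) cells. Its GFP(−) value was the floor of 20, which makes it at least 8.25-fold higher. A gamma-type chain and both beta-type chains were thus higher in GFP(+) cells, and 2.72% of all genes had a higher ratio than DNAH5.

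The remaining gamma-type chain went the other way. dnah5l (ENSDARG00000056888) had 73.5 normalized reads in GFP(+) cells, against 310 in GFP(−) cells, and was 4.22-fold lower in GFP(+) cells. As deposited, no other of the 40 genes was at least 3-fold lower. With 100 reads added to both values its log2 ratio was −1.24 instead of −2.08, which is short of the 3-fold limit. Its deposited symbol is DNAH8, and in mammals DNAH8 is known as an outer arm chain of the sperm tail. The pair of names leaves its closest mammalian counterpart unsettled here, but under either name it is of the gamma type.

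Intermediate chains sit at the base of the outer arm and anchor it. DNAI1 (ENSDARG00000038788) had 335.5 normalized reads in GFP(+) cells, against 26 in GFP(−) cells, and was 12.9-fold higher. dnai2b (ENSDARG00000074081), deposited as DNAI2, had 146.5 and was 5.86-fold higher than its 25 in GFP(−) cells.

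The light chains showed smaller ratios. DNAL1 (ENSDARG00000034042), which binds the motor domain of the gamma-type chain, had 228 normalized reads in GFP(+) cells, against 54.5 in GFP(−) cells, a 4.18-fold difference. A pair of genes bears the name DNAL4, for a light chain counted with the outer arm by its name. One (ENSDARG00000088841) had 76.5 normalized reads in GFP(+) cells, against 37.5 in GFP(−) cells, a 2.04-fold difference, and the other (ENSDARG00000031116) had 295 in GFP(+) cells, against 185.5 in GFP(−) cells, a 1.59-fold difference. Neither was past the 3-fold limit. Reads that fit both DNAL4 genes could not have been assigned to one of them with certainty.

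Docking proteins fix the outer arm to its doublet. odad1 (ENSDARG00000015010), deposited as CCDC114, had 238.5 normalized reads in GFP(+) cells, against 34 in GFP(−) cells, and ODAD2 (ENSDARG00000055128), deposited as ARMC4, had 178 in GFP(+) cells, against 33.5 in GFP(−) cells. They were 7.01-fold and 5.31-fold higher in GFP(+) cells, within the range of the arm's own chains. Over the 9 genes of the outer arm the median log2 ratio was 2.55, with 6 genes at least 3-fold higher and 1 at least 3-fold lower. For 2 of these 6, DNAH11 and dnai2b, passing the limit was fixed by a GFP(−) value of up to 25. Whether it was also fixed for DNAI1, with 26 in GFP(−) cells, was not examined.

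Inner arms shape the bend of the cilium and are of several kinds. All 7 inner arm genes had at least 3-fold higher values in GFP(+) cells, with a median log2 ratio of 2.85. For 1 of them, DNAI4, passing the limit was fixed by a GFP(−) value of up to 25. Whether it was also fixed for DNAH3 and DNAH7, with 26 in GFP(−) cells, was not examined. The highest ratio was that of DNAH3 (ENSDARG00000068468), with 304 normalized reads in GFP(+) cells, against 26 in GFP(−) cells, which was 11.7-fold higher. DNAH7 (ENSDARG00000060165) and DNAH12 (ENSDARG00000059987) were 7.25-fold and 7.23-fold higher, and DNAH6 (ENSDARG00000000606) 5.32-fold. These 4 heavy chains belong to inner arms with 1 motor head.

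DNAH2 and DNAH10 are the heavy chains of arm f, the inner arm with a pair of heads that is known as the I1 dynein of the alga Chlamydomonas. DNAH2 (ENSDARG00000087352) had 467 normalized reads in GFP(+) cells, against 111.5 in GFP(−) cells, and was 4.19-fold higher. DNAH10 (ENSDARG00000061486) had the lowest ratio of the class, with 311.5 in GFP(+) cells, against 98.5 in GFP(−) cells, and was 3.16-fold higher. Both lay below the 4 chains of the other inner arms in ratio, and the sizes of these ratios could not be compared with a replicate error. DNAI4 (ENSDARG00000044400), an intermediate chain also known as WDR78 that tethers arm f, had 199 normalized reads in GFP(+) cells with a GFP(−) value at the floor, a ratio of at least 9.95-fold.

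Taking both arms, 9 of 10 heavy chain genes had at least 3-fold higher values in GFP(+) cells, and dnah5l was the exception. For 1 of the 9, DNAH11, passing the limit was fixed by its GFP(−) value at the floor. Whether it was also fixed for DNAH3 and DNAH7, with 26 in GFP(−) cells, was not examined. Reads were not divided by gene length here, so that ratios, but not levels, can be compared between the long heavy chain genes and the short light chain genes. DNAI7 (ENSDARG00000016815), which bears the name of an intermediate chain but was not placed in a class, had 110 normalized reads in GFP(+) cells with a GFP(−) value at the floor, a ratio of at least 5.5-fold.

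**Figure D3:**
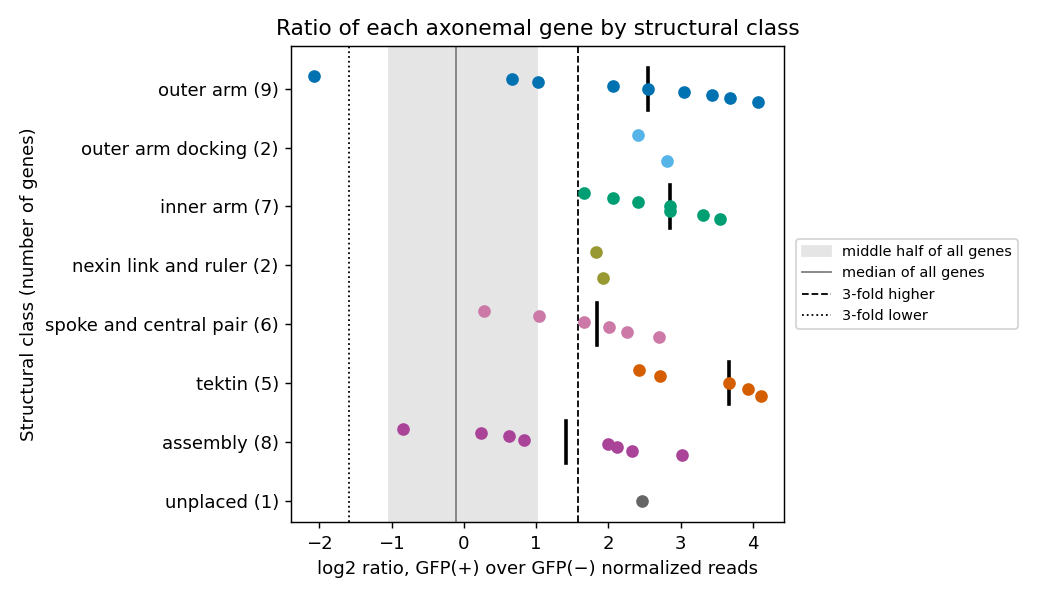
Log2 ratio of GFP(+) to GFP(−) normalized reads of each gene, by structural class. Each point is a gene, thick bars mark the median of classes with more than 2 genes, the grey band spans the quartiles of all genes (−1.03 to 1.01), and dashed and dotted lines mark 3-fold higher and lower values. All tektin and inner arm genes lie past the 3-fold line, whereas the assembly factors fall on both sides of it. Genes with a GFP(−) value of up to 25 lie past this line by that value alone.

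Along the doublet, a molecular ruler sets the spacing of the arms and the nexin-dynein regulatory complex links neighbouring doublets. CCDC39 (ENSDARG00000016485), a ruler protein, had 205 normalized reads in GFP(+) cells, against 57.5 in GFP(−) cells, a 3.57-fold difference. DRC1 (ENSDARG00000042182), of the nexin link, had 108.5 in GFP(+) cells, against 28.5 in GFP(−) cells, a 3.81-fold difference.

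Radial spokes reach from the doublets to the central pair. All 4 spoke genes had at least 3-fold higher values in GFP(+) cells. For 2 of them, RSPH1 and RSPH9, this was fixed by a GFP(−) value of up to 25. RSPH1 (ENSDARG00000070446), a protein of the spoke head, had the highest ratio, with 162.5 normalized reads in GFP(+) cells, against 25 in GFP(−) cells, a 6.5-fold difference. RSPH9 (ENSDARG00000017355) had 96 in GFP(+) cells with a GFP(−) value at the floor, a ratio of at least 4.8-fold. RSPH4A, also of the spoke head, was 4.04-fold and rsph10b 3.17-fold higher.

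Of the central pair, the naming rule took in SPAG6 and hydin, and neither reached the 3-fold limit. SPAG6 (ENSDARG00000020158) had 82.5 normalized reads in GFP(+) cells, against 40 in GFP(−) cells, a 2.06-fold difference. hydin (ENSDARG00000056764), which forms a projection of a central microtubule, had 296.5 in GFP(+) cells, against 245.5 in GFP(−) cells, a 1.21-fold difference. These 2 genes need not stand for the central pair, since other genes of it, named here after their values were seen, had higher ratios. spag17 had 245.5 normalized reads in GFP(+) cells, against 29.5 in GFP(−) cells, an 8.32-fold difference. cfap74, with 219.5 in GFP(+) cells, against 78.5 in GFP(−) cells, stayed under the 3-fold limit but above the ratios of SPAG6 and hydin. cfap221 and spef1, at least 9.35-fold and 4.18-fold higher, had GFP(−) values at the floor. A ratio of over 3-fold is fixed there, so these genes add nothing to this point. As a class, spokes and central pair had a median log2 ratio of 1.84.

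Tektins are filament proteins that lie inside the wall of the doublets. The 5 tektin genes had the highest median log2 ratio of the classes, 3.67, and all had at least 3-fold higher values in GFP(+) cells. For 2 of them, TEKT2 and tektl1, the latter was fixed by a GFP(−) value of up to 25. TEKT3 (ENSDARG00000045038) had 764 normalized reads in GFP(+) cells, against 44 in GFP(−) cells. It was 17.4-fold higher, the highest ratio of the 40 genes, and 2.59% of all genes had a higher one. TEKT2 (ENSDARG00000028973) had 344 in GFP(+) cells, against 22.5 in GFP(−) cells, a 15.3-fold difference.

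The other tektins followed, 1 of them with a lower bound only. tektl1 (ENSDARG00000054136), a tektin-like gene deposited as CCDC105, had 254.5 normalized reads in GFP(+) cells with a GFP(−) value at the floor, which gives a ratio of at least 12.7-fold. TEKT1 (ENSDARG00000018605) was 6.56-fold higher. TEKT4 (ENSDARG00000028899) had the lowest ratio of the class, with 191 in GFP(+) cells, against 35.5 in GFP(−) cells, a 5.38-fold difference.

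Assembly factors were split. They act in the cytoplasm as co-chaperones and scaffolds for the folding of dynein chains. Of 8 such genes, 4 had at least 3-fold higher values in GFP(+) cells, and the median log2 ratio, 1.41, was the lowest of the classes. For 2 of these 4, dnaaf3l and dnaaf6, passing the limit was fixed by a GFP(−) value of up to 25. Whether it was also fixed for ZMYND10 and DNAAF11, with 26 and 28 in GFP(−) cells, was not examined. dnaaf3l (ENSDARG00000036304), named as similar to the assembly factor DNAAF3, had 174.5 normalized reads in GFP(+) cells, against 21.5 in GFP(−) cells, an 8.12-fold difference. ZMYND10 (ENSDARG00000002406), which assists the folding of heavy chains, had 131 in GFP(+) cells, against 26 in GFP(−) cells, a 5.04-fold difference. dnaaf6 (ENSDARG00000038612) had 87 in GFP(+) cells with a GFP(−) value at the floor, a ratio of at least 4.35-fold, and DNAAF11, also known as LRRC6, was 3.98-fold higher.

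The other 4 assembly factors stayed within the 3-fold limits. dnaaf1 (ENSDARG00000012030), also known as lrrc50, had 107 normalized reads in GFP(+) cells, against 60 in GFP(−) cells, a 1.78-fold difference. dnaaf19 (ENSDARG00000053455), also known as ccdc103, had 99.5 in GFP(+) cells, against 64.5 in GFP(−) cells, a 1.54-fold difference, and DNAAF10 (ENSDARG00000037334), also known as WDR92, had 90.5 in GFP(+) cells, against 77 in GFP(−) cells, a 1.18-fold difference. dnaaf9 (ENSDARG00000079056) had 401.5 in GFP(+) cells, against 720 in GFP(−) cells, and was 1.79-fold lower. Its relative in the ciliate Tetrahymena, Shulin, packages outer arms for transport. Among the 8 assembly factors dnaaf9 alone had values that averaged 100 or more, so the class value rests on genes with few reads. spag1a, a gene of the assembly factor SPAG1 that the naming rule missed, had 2415 in GFP(+) cells, against 701.5 in GFP(−) cells. It was 3.44-fold higher. With genes found through synonyms added, the median log2 ratio of the assembly factors was 1.78.

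The study asked whether RFX transcription factors, which control genes of cilia, act in HCs across species. By name, 6 of the 40 genes are on its list of 225 putative RFX targets from mouse HCs, namely TEKT3, RSPH1, ZMYND10, CCDC39, SPAG6 and hydin. The study reported that zebrafish orthologues of its targets were, as a group, significantly higher in GFP(+) cells when set against all other genes. It reported the same for HCs in a second zebrafish data set. Here the 6 genes, matched by name, were set only beside other axonemal genes, which does not address that result. These 6 had a median log2 ratio of 2.08, and the 34 other genes had one of 2.41. Of the 6, 4 had at least 3-fold higher values in GFP(+) cells, as did 27 of the 34. GFP(−) values of up to 25, which fix this outcome, were held by 1 of the 6 and 9 of the 34. The targets thus included the gene with the highest ratio, TEKT3, and 1 of the least different, hydin. Of the factors themselves, RFX2 had 755.5 normalized reads in GFP(+) cells, against 556.5 in GFP(−) cells, rfx3 had 211.5 in GFP(+) cells, against 234 in GFP(−) cells, and foxj1b, a gene of the motile cilia regulator FOXJ1, had 162.5 in GFP(+) cells, against 96.5 in GFP(−) cells. Among the 8 RFX and FOXJ1 genes none was at least 3-fold higher, beside 16.9% of all genes. At least 3-fold lower values were found for 2 of them, beside 16.4% of all genes. Their median log2 ratio was −0.38. In GFP(+) cells 5 of the 8 were lower, as were 9260 of all 17668 genes. In a list this short such counts are no finding about the factors. The pair of RFX1 genes differed in direction. One (ENSDARG00000075904) had the highest ratio of the list, with 1009.5 in GFP(+) cells, against 494 in GFP(−) cells, and the other (ENSDARG00000005883) had 133.5 in GFP(+) cells, against 318 in GFP(−) cells, and was 2.38-fold lower. RFX7 had the lowest ratio, with 50 in GFP(+) cells, against 445.5 in GFP(−) cells.

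Other axonemal genes, taken from a list of 118 symbols of which 58 were matched to 57 genes outside the 40, had ratios in a similar range. In GFP(+) cells 45 of these were at least 3-fold higher, beside 16.9% of all genes. None was 3-fold lower, beside 16.4% of all genes, and the median log2 ratio of these genes was 2.31. GFP(−) values of up to 25 were held by 16 of them. The list is not fully separate from the naming rule, since CCDC11 in it is an older name of CFAP53, which the rule includes. Further genes of the list may be older names of genes that the rule covers, as only RefSeq synonyms were searched. The 57 genes are therefore no independent comparison, and the classes above may lack genes that stand among them. The highest ratio was that of CFAP91, a protein at the base of the radial spokes, with 585.5 normalized reads in GFP(+) cells, against 28 in GFP(−) cells. The lowest was that of MAK, a kinase, with 263 in GFP(+) cells, against 371 in GFP(−) cells.

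Cytoplasmic dynein, the motor that carries cargo along microtubules in all cells, and the intraflagellar transport machinery, which builds cilia, did not show this pattern. Of 22 genes of cytoplasmic dynein and its partners, 1 had an at least 3-fold higher value in GFP(+) cells, beside 16.9% of all genes. The median log2 ratio was 0.36. The exception was DYNLRB2, a light chain gene, with 185 normalized reads in GFP(+) cells and a GFP(−) value at the floor, which fixes this outcome. bicd2, a cargo adaptor gene, had the lowest ratio, with a GFP(+) value at the floor, against 148.5 in GFP(−) cells. DYNC1H1, the cytoplasmic heavy chain, had 3370.5 in GFP(+) cells, against 4530 in GFP(−) cells. In the list of intraflagellar transport genes, 3 of 22 were at least 3-fold higher, near the 16.9% of all genes, and the median was 0.12. KIF17, an accessory motor of that transport, had the highest ratio, with 181 in GFP(+) cells, against 22 in GFP(−) cells, which fixes a ratio of over 3-fold. A KIFAP3 gene (42.5 in GFP(+) cells, against 175.5 in GFP(−) cells) had the lowest. The GFP(+) value of this KIFAP3 gene lies in a range of up to 48 that was treated as tied. The lists also differ in level. Median GFP(−) values were 382.75 for cytoplasmic dynein and 182 for intraflagellar transport, against 36.5 for the 40 genes. These lists were not recomputed with values under 100 set to 100. The difference between these lists and the 40 genes was not tested, since single libraries give no error for it.

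**Figure D4:**
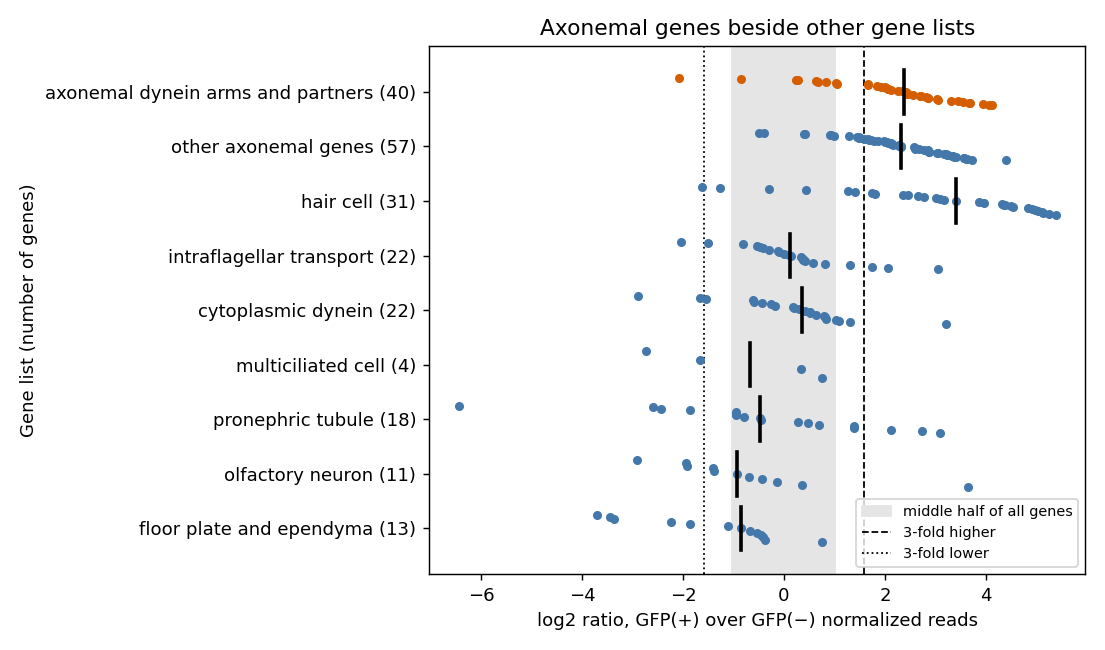
Log2 ratio of GFP(+) to GFP(−) normalized reads of each gene, for the 40 axonemal genes (orange) and 8 comparison lists (blue), with the number of genes in brackets. Thick bars mark medians, the grey band spans the quartiles of all genes, and dashed and dotted lines mark 3-fold higher and lower values. The medians of the 2 axonemal lists and of the HC list lie past the 3-fold line and those of the other 6 lists do not.

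HC genes were higher in GFP(+) cells too. Of 31 genes in a list of HC genes, 25 were at least 3-fold higher, beside 16.9% of all genes. The median log2 ratio of the list was 3.40. GFP(−) values of up to 25, which fix this outcome, were held by 6 of the 31. The transcription factor POU4F3 had 902 normalized reads in GFP(+) cells, against 44 in GFP(−) cells. SLC17A8, which loads glutamate into synaptic vesicles, had the highest ratio of the list, with 1248.5 in GFP(+) cells, against 30 in GFP(−) cells. In that list pvalb8, a parvalbumin gene, had the highest GFP(+) value, with 45625 in GFP(+) cells, against 2031.5 in GFP(−) cells. The lowest ratio was that of cabp2a (58 in GFP(+) cells, against 178.5 in GFP(−) cells).

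Lists of genes of other ciliated cells held few genes at least 3-fold higher in GFP(+) cells. The share of all genes was 16.9%. In lists this short, counts of 0 or 1 lie close to that share and are no finding about these cells. For multiciliated cells, 4 of 15 symbols were matched, and none of the 4 genes had an at least 3-fold higher value in GFP(+) cells. Of the 4, 2 were higher and 2 lower in GFP(+) cells. foxj1b had the highest ratio (162.5 in GFP(+) cells, against 96.5 in GFP(−) cells). cetn4 had the highest GFP(+) value (342.5 in GFP(+) cells, against 271.5 in GFP(−) cells). FOXN4 had the lowest ratio (81.5 in GFP(+) cells, against 544 in GFP(−) cells). The values summed to 797 in GFP(+) cells, against 1578 in GFP(−) cells. For olfactory neurons, 1 of 11 genes was at least 3-fold higher, and the sum was 1171 in GFP(+) cells, against 2109 in GFP(−) cells. Their defining gene OMP had 42 normalized reads in GFP(+) cells, against 158 in GFP(−) cells. Its GFP(+) value lies in a range of up to 48 that was treated as tied, so its exact size carries little meaning. That range held 3329 of all 17668 genes, 6 of the 11 olfactory genes and 8 of the 13 floor plate and ependyma genes. The olfactory gene past the 3-fold limit was stoml3a, with 361 in GFP(+) cells, against 29 in GFP(−) cells. The lowest ratio was that of STOML3 (ENSDARG00000057035), with 125 in GFP(+) cells, against 936 in GFP(−) cells. For the floor plate and ependyma, 0 of 13 genes were at least 3-fold higher. The highest ratio was again that of foxj1b, the 1 gene of this list with a higher value in GFP(+) cells. The sum was 3037 in GFP(+) cells, against 32336 in GFP(−) cells, mostly from COL2A1. A COL2A1 gene had the lowest ratio (1885 in GFP(+) cells, against 24519 in GFP(−) cells).

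The pronephric list was mixed. Among its 18 genes, 3 passed the 3-fold limit upwards and 4 downwards in GFP(+) cells, beside 16.9% and 16.4% of all genes. GFP(−) values of up to 25 were held by 2 of the 18. GFP(+) values in the range of up to 48, treated as tied, were held by 5 of the 18. Its sum was 32256 in GFP(+) cells, against 26306 in GFP(−) cells, most of it from 1 SLC20A1 gene (ENSDARG00000010641) with 28482.5 in GFP(+) cells, against 17557.5 in GFP(−) cells. The other SLC20A1 gene (ENSDARG00000020114) had the lowest ratio, with 48.5 in GFP(+) cells, against 4210.5 in GFP(−) cells. CDH17, a cadherin of the pronephric duct, had 241.5 in GFP(+) cells, against 1454 in GFP(−) cells, whereas jag2a, a Notch ligand gene, had the highest ratio, with 207.5 in GFP(+) cells, against 24.5 in GFP(−) cells. The GFP(+) library also held more keratin RNA of the superficial epidermis, with 978726 normalized reads of krt4 in GFP(+) cells, against 73615 in GFP(−) cells, and all 4 such keratin genes examined were at least 3-fold higher. The epidermal list was added after its values were seen. The part of these cell types in the axonemal values was not tested.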

How the data were processed

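According to the methods and labels, the authors aligned paired reads to Zv9 with TopHat, counted them on Ensembl genes with HTSeq (versions not given in the sources used here), applied quantile normalization and set a floor of 20. The deposited table therefore holds a normalized signal for each gene and no raw counts, and the title of the table names a minimum of 40 reads. That title names the floor before the quantile normalization, whereas the methods give the reverse order. The order of these steps was not settled here. Depth is unknown and no interval can be given.

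The ratio of GFP(+) to GFP(−) values was computed for 17668 genes without a pseudocount. A ratio against a GFP(−) value of 20 is given as a lower bound. With 1 library per group there was no test. The limit of 3-fold was taken from the study, which used it for elevated expression in its RNA-seq of mouse HCs. Names came from a table that matched 14593 identifiers and from 3758 deposited symbols, which together named 15563 genes. Comparison lists were matched by symbol, with or without a final a or b.

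The 40 genes, the classes and the lists were chosen with earlier results of these data known. Genes given with both values are, by rule, DNAH5, dnah9l, TEKT3, the highest and lowest ratio of each class and each list except the epidermal keratins, genes among the 40 at the floor or at least 3-fold lower, and the highest GFP(+) value of marker lists. Others were chosen after their values were seen. Alternatives were pseudocounts of 20 and 100, a minimum mean of 100, GFP(+) values of up to 48 set to 48, values under 100 set to 100, centring on the median of all genes, 1 source of names, added synonyms from the RefSeq annotation of GRCz12tu, and summed genes of 1 symbol. A minimum GFP(−) value above 25 was added after seeing the data. The ratio script was run on simulated data without noise and without low values, which checks its arithmetic only. Promoter motifs and values per length were planned but not computed, as no sequences were used here. Python 3.11.15, numpy 2.4.6, pandas 2.3.3 and matplotlib 3.10.9 were used.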

Additional observations from a re-analysis of the deposited data

How the results depend on the processing

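No paired analysis was possible because each group has 1 library. As there is no replicate spread, a median ratio, a count or the ratio of a single gene was taken as moved past a 1.5-fold change. Of 131 recomputed values, 96 were not moved, 34 were and 1 changed sign. Some of the 96 could not have moved, so these totals are no measure of stability. Centring, for instance, shifted every log2 ratio by only 0.10. Ratios depended on the treatment of low values. With 20 added to both values, the medians were 2.18 for the inner arm, 1.89 for the outer arm and 2.78 for tektins. With 100 added, 7 genes were at least 3-fold higher and 0 at least 3-fold lower (dnah5l was at −1.24), and the median was 1.06 over the 40 genes, 0.51 for assembly factors, 1.42 for the inner arm, 0.83 for the nexin link and ruler, 1.09 for the outer arm, 1.20 for docking proteins, 0.69 for spokes and central pair and 1.56 for tektins. With values under 100 set to 100, 11 genes were at least 3-fold higher, and in the same order the medians were 0.76, 0.049, 1.64, 0.58, 0.72, 1.04, 0.26 and 1.71. A minimum mean of 100, which 18 of the 23 genes left met with a GFP(−) value under 100 and which therefore favours higher genes, gave 19 genes at least 3-fold higher, and medians of −0.84 for assembly factors (dnaaf9 alone) and 0.27 for spokes and central pair (hydin alone). With deposited symbols only, 16 of 17 genes were at least 3-fold higher, and the medians were 2.33 for assembly factors (ZMYND10 alone), 2.07 for the inner arm and 2.57 for tektins. For this choice no share of all genes was computed. The order of the classes changed with this choice. The outer arm had the highest median, 2.80, followed by docking proteins with 2.61, and the nexin link and ruler had the lowest, 1.83. Setting GFP(+) values of up to 48 to 48 changed nothing, since none of the 40 genes lay in that range.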

Other observations

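Under names that the choice of genes did not cover, 3 further genes were found through synonyms of the RefSeq annotation. Genes under older names that these synonyms do not hold would have been missed. odad3 (ENSDARG00000062978), known also as ccdc151 and a partner of odad1 in docking the outer arm, had 523.5 normalized reads in GFP(+) cells, against 31 in GFP(−) cells, and was 16.9-fold higher in GFP(+) cells. CCDC11 (ENSDARG00000069762), the older name of CFAP53, had 82 in GFP(+) cells with a GFP(−) value at the floor of 20, a ratio of at least 4.1-fold. CCDC11 was also counted above among the other axonemal genes. spag1a (ENSDARG00000004017), a gene of the assembly factor SPAG1, had 2415 in GFP(+) cells, against 701.5 in GFP(−) cells, a 3.44-fold difference.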
